A study of Mus musculus with 22 samples.

Results

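RNA bound to tagged ribosomes was set against RNA left unbound in dendrites of the mouse hippocampal CA1 field. The labels for location and fraction chose the members: 12 of the 22 samples were dendritic. They form 6 of 11 libraries, because each library was sequenced in a paired-end run and a single-end run that count as 1 replicate. The immunoprecipitates (IP) were 4 libraries, 2 from fear conditioned mice (FC1 and FC2) and 2 from mice kept in the home cage (HC1 and HC2), and the supernatants (SN) were 2 libraries, FC2 and HC2. All animals shared 1 genotype on a C57BL/6 background, carrying both Camk2a-tTA and tetO-EGFP-L10a, and the labels give no age and no time after conditioning. The pulldown used a monoclonal antibody to GFP, HtzGFP-19C8. No label states that the libraries are of different animals, or that an IP and an SN of the same number share a dissection. The spread behind each p-value is therefore that of these samples, and may be technical.

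In these mice the Camk2a promoter drives a transactivator in excitatory forebrain neurons, which switches on the large-subunit ribosomal protein L10a fused to a green fluorescent protein. Pulling on that tag enriches mRNAs carried by ribosomes of the neurons that express it. The supernatant keeps mRNA of every other cell in the dissected layer, of untagged ribosomes, and whatever was not on a ribosome. The dendrite layer of CA1 holds few neuronal cell bodies but many astrocyte processes, myelinated axons, presynaptic terminals and interneurons. A gene higher in the pulldown than in the supernatant can therefore mark the tagged cell type or a greater share of its mRNA on ribosomes, and bulk libraries cannot tell fewer cells of a type from less RNA per cell.

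Depth, estimated from the spacing of low FPKM values, was 5651000 to 21210000 mapped fragments in the paired-end IP and 34980000 to 35690000 in the SN. The single-end runs held 524200 to 2790000 reads in the IP and 7268000 to 10670000 in the SN. Genes above 0 FPKM numbered 3344 in HC1, 4695 in HC2, 12205 in FC1 and 6147 in FC2 IP, against 13164 in HC2 and 10785 in FC2 SN. Among the 2938 genes tested, 29.3% of the IP values and 6.0% of the SN values were 0. FPKM, the authors' unit, divides the fragments of a gene by its transcript length and by the mapped fragments of the library.

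The FC1 IP stood apart from the other 3. Across genes, which are not independent replicates, its log2(FPKM + 1) had a Pearson's r of 0.794 with the HC2 SN, while the other IP had 0.442 to 0.552. In the single-end table that r was 0.555. Its paired-end run had an r of 0.707 with the single-end run of the HC2 SN and of 0.705 with its own single-end run. The paired-end run of the FC2 SN likewise had 0.724 with the single-end run of the HC2 SN and 0.713 with its own, while the other 4 dendrite libraries matched their own run best. Whether a label or library was exchanged was not tested. The row of the microRNA gene Mir135b made up 26.9% of its summed FPKM in the paired-end run, and was 0 in its single-end run and in the other 5 dendrite libraries. Rpph1, the RNA of ribonuclease P, a row chosen after its values were seen, had a scaled FPKM of 1896 in FC1 IP and 144 to 478 in the other IP, against 1579 in HC2 and 1947 in FC2 SN. Several results, though not all that this library moves, are therefore also given without it.

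**Figure D1:**
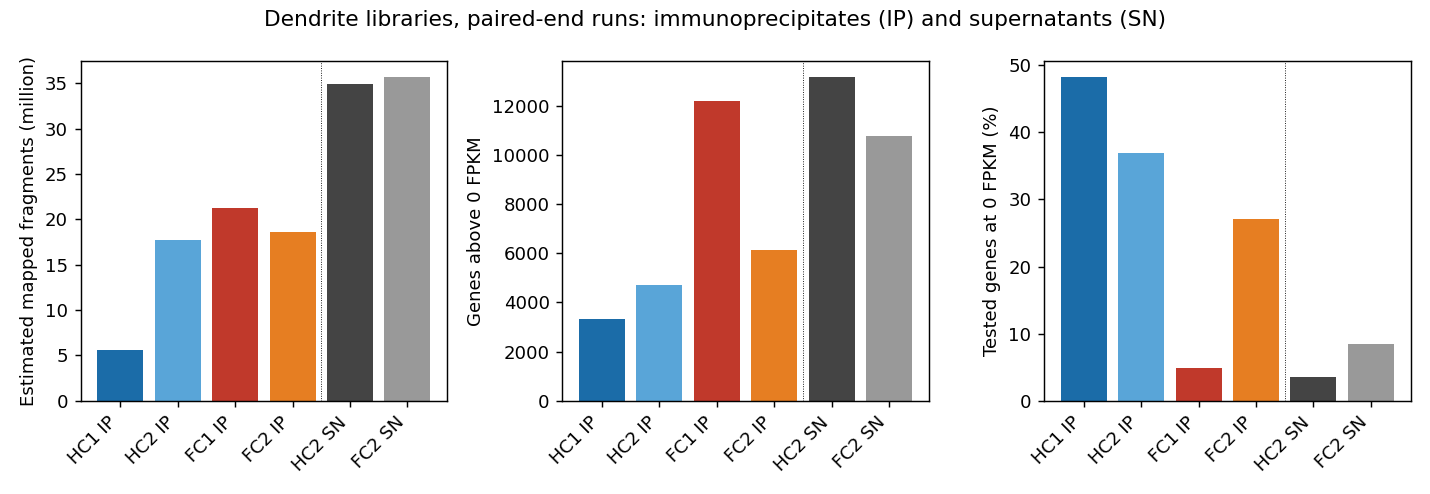
Bars give, for each dendrite library (paired-end run), the estimated mapped fragments, the number of genes above 0 FPKM and the percentage of the 2938 tested genes listed at 0. The FC1 immunoprecipitate, with 12205 genes, sits among the supernatants in the middle and right panels, while HC1 is the shallowest library.

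The comparison asked which mRNAs differ between tagged ribosomes and unbound RNA. Values were divided by a library factor (scaled FPKM), and differences are on the log2(scaled FPKM + 1) scale, IP minus SN, which understates the change of low genes. The minimum for testing was a scaled FPKM averaging 1 over the 11 libraries. Of the 2938 genes that met it, 0 (0%) were higher and 2 (0.0681%) were lower in IP at an adjusted p of 0.05 (limma with trended empirical Bayes, Benjamini-Hochberg). At an unadjusted p of 0.05, 29 (0.987%) were higher and 99 (3.37%) were lower, and with upper quartile scaling 25 were higher and 329 lower, around a median difference of -0.49 over all genes. All 4 IP lay above both SN for 129 genes (4.39%) and below both for 530 genes (18%). The median difference over all genes was -0.10, or -0.15 without FC1. Of the 2938 genes, 1252 (42.6%) were positive, and among the 1035 genes above 0 in all 4 IP, 590 (57%) were. In the single-end table the median was -0.40, and 72.8% of genes had the sign they had in the paired-end table, as did 122 of the 128 with an unadjusted p under 0.05.

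Both called rows lie at 1 locus, and in the single-end run 3 of the 4 IP lay above both SN for each of them, a difference that did not pass the adjusted threshold there. Gm3168 (mm9 chromosome 8, 125949774 to 125958050, minus strand) was listed at 0 in all 4 IP, against a scaled FPKM of 4651 in HC2 and 111 in FC2 SN (log2 difference -9.50, SE 1.26, limma adjusted p = 0.00387). AK193394 lies inside it on the plus strand (chromosome 8, 125951538 to 125951787), and was listed at 0 in all 4 IP, against 21.2 in HC2 and 32.2 in FC2 SN (log2 difference -4.76, SE 0.77, limma adjusted p = 0.0207). In the single-end table as deposited, Gm3168 had an FPKM of 122600 in HC1, 64790 in HC2, 0 in FC1 and 89380 in FC2 IP, against 477 in HC2 and 647 in FC2 SN. The single-end FPKM of AK193394 was 719, 30610, 0 and 31730 in the same IP order, against 196 in HC2 and 9.37 in FC2 SN. The 2 rows overlap, so their reads cannot be told apart without strand. Leaving out FC1 IP or HC2 SN left 0 genes called, and leaving out any of the other 4 dendrite libraries left 1.

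No gene higher in IP passed the adjusted threshold. The genes named here were the largest of 19 that had an unadjusted p under 0.05, a mean of at least 10 in IP, no overlap between IP and SN, and the same direction in both name-matched pairs and in the single-end table. Each had a limma adjusted p of 1 and an exact two-sided permutation p of 0.133, the smallest that the 15 arrangements of 4 against 2 allow. Per-library values run HC1, HC2, FC1 and FC2 for IP, and HC2 and FC2 for SN. Ncl, which encodes the nucleolar protein nucleolin, had a scaled FPKM of 197, 217, 13.0 and 220.1 in IP, against 1.60 and 6.29 in SN (log2 difference 4.63, SE 1.66, limma adjusted p = 1). Npm1, which encodes nucleophosmin, another abundant nucleolar protein, had 33.0, 42.8, 28.1 and 74.0 in IP, against 1.85 and 1.11 in SN (log2 difference 4.11, SE 1.52, limma adjusted p = 1). The 4 IP of Npm1 lay close together and far above both SN, whereas FC1 was the lowest IP for Ncl by a wide margin. Rbm25, a splicing regulator, had 22.6, 169.8, 0.596 and 249 in IP, against 0.2997 and 0.0701 in SN (log2 difference 4.92, SE 1.85, limma adjusted p = 1). Its FC1 value was close to the HC2 SN, and without FC1 the difference was 6.41. Its single-end groups overlapped, with 0.624, 9.14, 7.51 and 3.00 in IP, against 1.02 and 0.478 in SN.

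Mdm2, the ubiquitin ligase that restrains p53, had a scaled FPKM of 23.0, 218, 32.4 and 29.0 in IP, against 1.32 and 0.260 in SN (log2 difference 4.81, SE 1.56). Anp32b, an acidic nuclear histone chaperone, had 199, 85.7, 20.4 and 24.7 in IP, against 2.26 and 0.606 in SN (log2 difference 4.60, SE 1.40). Smc1a, a core subunit of cohesin, had 467, 113, 4.50 and 16.1 in IP, against 1.00 and 1.25 in SN (log2 difference 4.48, SE 1.70). For these 3 genes a home cage IP was the highest, and every IP exceeded both SN, as the conditions for naming required. A130040M12Rik had 37.0, 64.9, 35.1 and 20.3 in IP, against 4.29 and 0.0207 in SN, and in the single-end run 313, 200.4, 1148 and 483 in IP, against 6.57 and 0.315 in SN. Ezr, which encodes ezrin, a linker of membrane to actin, had 99.3, 118, 2.101 and 11.9 in IP, against 1.22 and 0.858 in SN, but in the single-end run its groups overlapped and the difference was 0.37. Rpl36al, a paralog of a ribosomal protein gene whose reads may be shared with near-identical copies, had 69.8, 57.8, 19.1 and 43.3 in IP, against 7.05 and 0.670 in SN. In the single-end run its IP values lay between 45.6 and 53.3, against 6.36 and 3.68 in SN. Pou2af1, a transcriptional coactivator of the B lineage, is described with its group.

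Genes named as lower in IP were the largest of 22 that met the same conditions, and none passed the adjusted threshold apart from the locus on chromosome 8, which failed them. Several were at or near 0 in every IP except FC1. Fabp7, a fatty acid binding protein of astrocytes and their precursors, was listed at 0, 0, 2.78 and 0.0596 scaled FPKM in IP, against 7.21 and 14.1 in SN (log2 difference -2.98, SE 0.84, limma adjusted p = 1). In the single-end run it was 0 in all 4 IP, against 17.7 and 30.4 in SN. Sox2ot, a long noncoding RNA that overlaps Sox2, had 0, 0, 0.487 and 0 in IP, against 2.80 and 47.9 in SN (log2 difference -3.63, SE 0.93, limma adjusted p = 1). Stx4a, which encodes a plasma membrane SNARE, had 0, 0, 1.61 and 0 in IP, against 14.1 and 7.56 in SN (log2 difference -3.16, SE 0.83, limma adjusted p = 1). The 3 other IP were at 0 for both of these genes, so FC1 alone carried signal. Hsbp1, a binding partner of heat shock factor, had 0, 0.156, 5.76 and 3.26 in IP, against 14.9 and 103 in SN (log2 difference -4.08, SE 1.21, limma adjusted p = 1). Slc22a17, a membrane receptor for lipocalin, had 0, 0, 1.63 and 0.0825 in IP, against 24.3 and 7.47 in SN. The other 5 genes, Dcdc2a, Lass2, Rcan2, Isca2 and 1700025G04Rik, had log2 differences of -3.20 to -2.95. Lass2, which encodes a ceramide synthase, and Rcan2, a regulator of calcineurin, were at 41.3 and 31.0 in FC2 SN but at 1.75 and 3.52 in HC2 SN. Dcdc2a was at 37.1 in FC2 SN and 1.74 in HC2 SN, and Isca2 at 37.5 and 2.31. The size of the difference of Sox2ot, Dcdc2a, Lass2 and Rcan2 thus rests on FC2 SN, without which they did not meet the expression minimum.

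**Figure D2:**
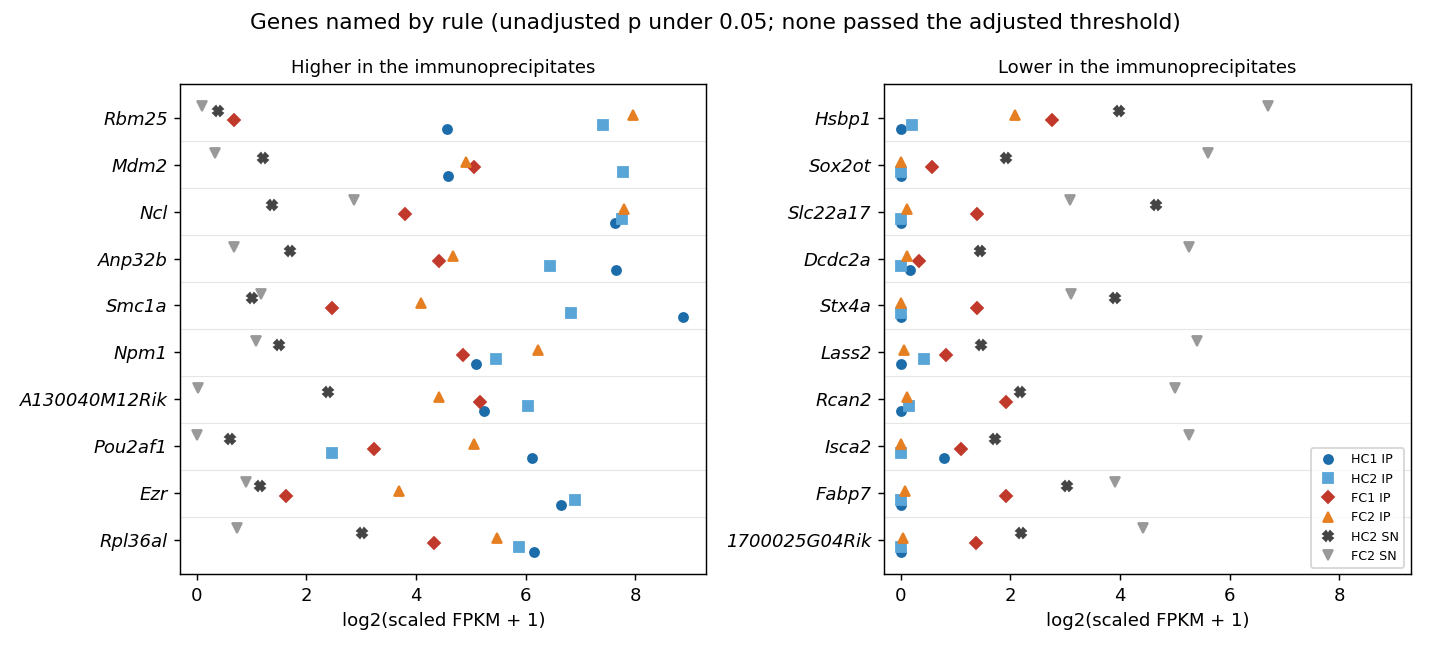
Points give log2(scaled FPKM + 1) of each dendrite library (paired-end run) for the 10 genes named as higher (left) and the 10 named as lower (right) in immunoprecipitates (IP) against supernatants (SN). Every IP lies on 1 side of both SN for each gene, which was a condition for naming it. FC1 is the IP nearest to the supernatants for Rbm25, Ncl, Anp32b, Smc1a, Npm1, Ezr, Rpl36al and every gene on the right.

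Astrocyte and oligodendrocyte markers mostly had negative differences. None of the glial genes passed the adjusted threshold. Of 24 astrocyte markers 20 passed the expression minimum, and 0 of these were positive, with a median difference of -1.48 beside -0.10 over all genes tested. Without a minimum, 0 of the 24 were positive in the paired-end table, beside 32.4% of the 15358 genes above 0 in any dendrite library. At an unadjusted p of 0.05, 4 of the 20 were lower and 0 were higher, beside 3.37% and 0.987% of all genes. The filter keeps a gene through the group where it is high, so these counts and medians describe the tested members only. The median was -1.62 without FC1, with 2 positive members, and -2.12 in the single-end table, with 0 positive. Relative to the median of all genes it was -1.38, and leaving out any 1 library moved it to between -1.55 and -0.92.

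Gfap, the intermediate filament of astrocytes, had a scaled FPKM of 0.124, 0.0572, 2.88 and 4.99 in IP, against 5.92 and 13.8 in SN (log2 difference -2.14, SE 0.88, limma adjusted p = 1). The home cage IP were far below both SN, and the fear conditioned IP were nearer to them. FC2 IP in the single-end run, at 41.9, exceeded both SN, at 36.3 and 32.0, and the other IP were at 1.10 to 9.48. Gja1, the astrocyte gap junction protein connexin 43, was not among the genes chosen by rule and had the smallest unadjusted p of the list by limma, with 0, 0.957, 2.099 and 0.218 in IP, against 4.26 and 17.1 in SN. Glul, which encodes glutamine synthetase, had 63.6, 33.4, 37.9 and 46.2 in IP, against 87.8 and 91.6 in SN. All 4 IP were below both SN for Glul, yet its mRNA remained among the abundant ones in IP, at 45.3 ± 13.3 (SD, n = 4) against 89.7 ± 2.70 in SN (SD, n = 2). Slc1a2, the main glial glutamate transporter, did not separate the groups, with 32.4, 37.3, 107.7 and 5.65 in IP, against 29.9 and 33.4 in SN. The summed level of the 24 markers was 353, 288, 286 and 209 in IP, against 376 and 535 in SN.

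Oligodendrocyte markers showed the same direction. Of 18 markers 10 were tested, 0 were positive, and the median difference was -1.70, or -1.87 without FC1 and -2.05 in the single-end table. Without a minimum 1 of the 18 was positive, beside 32.4% of all genes without it. Mbp, a structural protein of myelin, had a scaled FPKM of 5.17, 7.04, 23.5 and 15.8 in IP, against 39.9 and 63.8 in SN (log2 difference -2.105, SE 1.35, limma adjusted p = 1). Mobp, another myelin protein, had 0, 0.965, 12.2 and 0 in IP, against 34.0 and 9.998 in SN, and in the single-end run it was 0 in all 4 IP, against 49.97 and 48.85 in SN. FC1 was the highest IP for both genes and reached the range of the supernatants for Mobp. The summed level of the 18 markers was 8.03, 28.5, 69.9 and 58.8 in IP, against 129 and 148 in SN.

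Markers of inhibitory neurons, which do not use the Camk2a promoter, mostly had negative differences. Of 15 interneuron markers 7 were tested and 1 was positive, with a median difference of -1.39. Gad1, which encodes the enzyme that makes GABA, had a scaled FPKM of 0.262, 0, 1.46 and 0.537 in IP, against 4.22 and 7.07 in SN (log2 difference -2.13, SE 0.78, limma adjusted p = 1). Single-end values of Gad1 were 1.61, 0, 0 and 0.320 in IP, against 7.41 and 15.9 in SN. Npy, the neuropeptide of a class of interneurons, had 0, 0, 10.6 and 2.54 in IP, against 8.33 and 23.9 in SN. The IP and SN did not overlap for Gad1, while FC1 lay between the SN for Npy.

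Microglial markers were fewer and less uniform. Of 15 markers 6 were tested and 2 were positive, with a median difference of -1.28. Relative to all genes the median was -1.18, and -0.72 without the HC2 SN. C1qa, a subunit of the complement initiator C1q, was below the expression minimum and was listed at 0 in every IP but FC1, where it was 0.447, against 1.35 and 2.54 in SN. Its chain partner C1qb had a scaled FPKM of 6.00, 0, 0.966 and 0 in IP, against 3.60 and 19.0 in SN, and the single-end value of HC1 was 51.9, above both SN at 5.02 and 4.96. Ly86 was at 69.3 in FC2 IP and at 0, 0 and 0.520 in the other IP, against 0.581 and 0.655 in SN. Of the choroid plexus and ependyma markers only Ttr, the carrier of thyroid hormone made by choroid plexus, was tested, and it was at 114 in FC2 IP and 0 in the other 3, against 0.0627 and 0.474 in SN.

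Genes of the translation machinery mostly had positive differences. Of 79 cytosolic ribosomal protein genes 75 were tested and 58 were positive, with a median difference of 0.79 beside -0.10 over all genes. All 4 IP lay above both SN for 13 of the 75, beside 4.39% of all genes, and below both for 2, beside 18%. Without a minimum 60 of 79 were positive, beside 32.4% of all genes without it. None passed an unadjusted p of 0.05, beside 0.987% of all genes on the higher side and 3.37% on the lower side. The median was 0.75 without FC1 and 1.11 in the single-end table, where 61 were positive. Relative to all genes it was 0.89, but in refits it was 0.13 without the HC2 SN and 1.29 without the FC2 SN, so its size there depended on the supernatant kept. Many ribosomal protein genes have processed pseudogenes, so their FPKM are uncertain. The summed level of the 79 genes was 7816, 2669, 2627 and 2279 in IP, against 646 and 1188 in SN.

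Rpsa, a protein of the small subunit, had a scaled FPKM of 654, 557, 1311 and 567 in IP, against 81.2 and 189 in SN (log2 difference 2.53, SE 1.57). Its single-end values were 1423, 418, 1316 and 1350 in IP, against 60.0 and 157 in SN, so that it separated the groups in both runs. Rpl4, of the large subunit, had 538, 142, 51.6 and 158 in IP, against 18.1 and 20.9 in SN (log2 difference 2.96, SE 1.41, limma adjusted p = 1). Rpl32 had 1105, 10.48, 9.97 and 18.3 in IP, against 1.56 and 1.55 in SN. Rpl41 and Rpl10 were also abundant, but their IP and SN overlapped, with 1458, 220.1, 165 and 123 in IP against 60.6 and 177 in SN for Rpl41. HC1, the shallowest library, was the highest IP for Rpl41, Rpl10, Rpl32 and Rpl4. Rpl10a, which encodes the protein that carries the tag, had 3.89, 11.7, 16.8 and 16.4 in IP, against 5.30 and 5.01 in SN (log2 difference 0.94, SE 1.27, exact permutation p = 0.40). Whether reads of the transgene enter the Rpl10a row was not tested.

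Of 33 translation factor genes 25 were tested and 19 were positive, with a median difference of 0.87, or 0.76 without FC1 and 0.42 in the single-end table. Relative to all genes the median was 0.97, and 0.52 without the HC2 SN. At an unadjusted p of 0.05, 3 of the 25 were higher and 2 were lower, beside 0.987% and 3.37% of all genes. Every IP was above both SN for 8 and below both for 3, beside 4.39% and 18% of all genes. Eef1a1, which delivers aminoacyl-tRNA to the ribosome, had a scaled FPKM of 925, 336, 246 and 699 in IP, against 67.7 and 98.8 in SN (log2 difference 2.54, SE 1.05, limma adjusted p = 1). Its single-end values were 498, 217, 304 and 393 in IP, against 70.0 and 46.9 in SN. Eef2, which moves the ribosome along the mRNA, had 1279, 145, 72.1 and 129 in IP, against 39.1 and 63.6 in SN, and Pabpc1, which binds poly(A) tails, had 255, 40.1, 12.01 and 27.2 in IP, against 4.82 and 4.64 in SN (log2 difference 2.95, SE 1.32, limma adjusted p = 1). Eif4b, a helper of the cap-binding helicase, had 56.4, 9.28, 7.68 and 44.4 in IP, against 3.32 and 3.98 in SN. These 4 genes had no overlap between IP and SN in either run. The 3 genes with an unadjusted p under 0.05 on the higher side were Eef1a1, Pabpc1 and Eif2s2, and the 2 on the lower side were Eif4a2 and Eif4e, with differences of -2.66 and -1.95. Eif4e encodes the cap-binding protein and Eif4a2 an RNA helicase of the same complex.

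**Figure D3:**
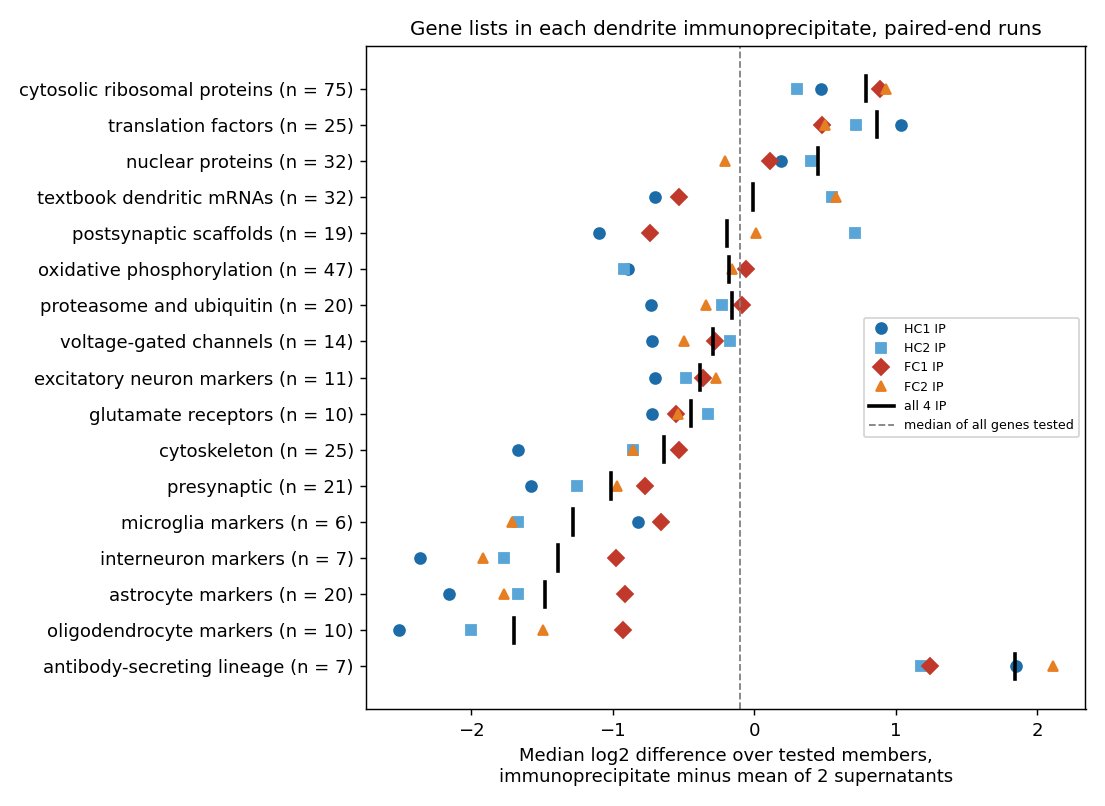
Each symbol is the median, over the tested members of a list (n beside its name), of the log2(scaled FPKM + 1) difference of 1 immunoprecipitate (IP) from the mean of the 2 supernatants, which all 4 share, and black bars give the median of the differences of the 4-library mean. Medians were positive for ribosomal proteins, translation factors and the antibody-secreting lineage in all 4 IP. They were below -0.5 in all 4 for astrocyte, oligodendrocyte, interneuron and microglia markers, and also for presynaptic and cytoskeleton genes. Dendritic mRNAs and postsynaptic scaffolds split the IP.

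Camk2a, the kinase subunit whose mRNA is a classic resident of dendrites, had a scaled FPKM of 66.5, 531, 119 and 379 in IP, against 84.4 and 138 in SN (log2 difference 0.88, SE 1.24, exact permutation p = 0.667). HC2 and FC2 IP exceeded both SN, HC1 lay below both and FC1 between them. In the single-end run HC1 was the highest, at 810 against 227, 73.4 and 397 in the other IP and 209 and 174 in SN. Of the 20 excitatory neuron markers 11 were tested and 3 were positive, with a median difference of -0.38. In refits with behaviour as covariate, their median relative to all genes was -1.16 without the FC2 SN and 0.02 without the HC2 SN. It was -0.01 without FC1, beside -0.28 with every library. From plain means, the median difference without FC1 was -0.36, beside -0.15 over all genes. The size and sign of the relative median in the refits thus depended on the supernatant kept. It was negative in 20 of 21 alternative settings, which share libraries, and was -0.01 with the replicate block. In the name-matched pairs the median difference was -0.90 in HC2, with 1 of 11 positive, and 0.02 in FC2, with 6 of 11 positive. Neurod6, a transcription factor of these neurons, was listed at 0 in HC1 and HC2 IP, and was at 0.778 in FC1 and 0.0603 in FC2, against 0.306 and 0.0289 in SN.

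Of 38 textbook dendritic mRNAs 32 were tested, 16 were positive and the median difference was -0.01, or 0.14 without FC1 and -0.85 in the single-end table. The list split by library: the median over its members was 0.55 in HC2 and 0.58 in FC2 IP, but -0.70 in HC1 and -0.53 in FC1 IP. Ppp1r9b, the spine protein spinophilin, had a scaled FPKM of 108, 215, 15.2 and 182 in IP, against 45.6 and 90.2 in SN. HC1, HC2 and FC2 IP were above both SN and FC1 was below them. Of the list, 1 gene had an unadjusted p under 0.05, on the higher side, beside 0.987% of all genes. It was Eef1a1, which is also a translation factor.

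Postsynaptic scaffolds followed the same split, with a median of 0.71 in HC2 and 0.01 in FC2 IP, and of -1.10 in HC1 and -0.74 in FC1 IP. Of 30 genes with a row 19 were tested and 7 were positive. Dlg4, the scaffold PSD-95, had a scaled FPKM of 27.6, 29.0, 4.69 and 48.9 in IP, against 10.7 and 11.1 in SN, with FC1 the only IP below the SN. Shank1, a scaffold of the deep postsynaptic density, had 35.7, 75.0, 10.3 and 31.1 in IP, against 15.7 and 25.2 in SN. Psd3 had 1.84, 33.3, 5.21 and 16.9 in IP, against 10.9 and 11.8 in SN. Dlgap1, a linker between the Dlg and Shank families, had a negative difference, with 0.193, 1.19, 7.28 and 25.6 in IP, against 10.8 and 87.0 in SN. Of the glutamate receptor genes 1 of 10 tested was positive, with a median difference of -0.45. Among them Cnih2, an AMPA receptor auxiliary subunit, had 4.20, 64.8, 11.2 and 108 in IP, against 22.2 and 29.7 in SN. Voltage-gated channel genes had a median of -0.29, with 1 of 14 positive, and relative to all genes it lay between -0.50 and 0.05 when 1 library was left out.

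Presynaptic genes mostly had negative differences. Of 32 genes 21 were tested and 1 was positive, with a median difference of -1.01, or -1.18 without FC1 and -1.83 in the single-end table, where 0 were positive. At an unadjusted p of 0.05, 1 of the 21 was lower, beside 3.37% of all genes, and 8 had every IP below both SN, beside 18% of all genes. Relative to all genes the median was -0.91, and -0.21 without the HC2 SN and -1.57 without the FC2 SN. Syt1, the calcium sensor of synaptic vesicle release, had a scaled FPKM of 0, 2.34, 2.77 and 0.592 in IP, against 5.36 and 18.5 in SN. Atp6v0c, a subunit of the vesicular proton pump, had 0, 2.71, 4.48 and 3.11 in IP, against 13.5 and 30.0 in SN (log2 difference -2.81, SE 1.23, limma adjusted p = 1). Snap25, a SNARE of the terminal membrane, had 6.01, 2.95, 42.9 and 854 in IP, against 63.3 and 106 in SN, so that FC2 alone was above the SN and the other 3 IP were below. Vamp2, its vesicle partner, had 20.9, 208, 39.8 and 39.9 in IP, against 78.1 and 60.4 in SN. Cytoskeleton genes had 4 of 25 tested positive and a median of -0.64, which relative to all genes was -0.54, and -0.27 without HC1 IP and -0.86 without the FC2 SN. Among them Tuba1b, an alpha tubulin, was the only 1 with every IP above both SN, at 22.9, 70.6, 30.2 and 83.2 against 16.5 and 20.8. Every IP was below both SN for 8 of the 25, and the shares over all genes were 4.39% above and 18% below.

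Genes for nuclear proteins were a mixed group. Of 42 genes with a row 32 were tested and 21 were positive, with a median difference of 0.45, but in the single-end table the median was -0.37 and 11 were positive. Relative to all genes the median was 0.56, and 0.27 without HC1 IP, 0.36 without HC2 IP and 0.26 without the HC2 SN. At an unadjusted p of 0.05, 3 of the 32 were higher (Ncl, Rbm25 and Npm1) and 1 was lower (H3f3b, a replacement histone). The shares over all genes were 0.987% higher and 3.37% lower. The splicing factor Srsf5, among the most abundant of the list, had a scaled FPKM of 29.0, 147, 10.8 and 12.3 in IP, against 6.399 and 23.1 in SN, and its single-end difference was -1.91. Malat1, a long noncoding RNA kept in the nucleus, had 444, 214, 224 and 70.0 in IP, against 34.2 and 54.9 in SN (log2 difference 2.16, SE 1.05, limma adjusted p = 1). In the single-end run it had 82.6, 59.4, 166 and 59.9 in IP, against 28.0 and 31.0 in SN, so every IP was above both SN in both runs. Of the 7 nuclear long noncoding RNAs tested, Malat1 included, 2 were positive and the median difference was -0.15. Atpase6, a mitochondrial gene name whose row lies on nuclear chromosome 1 and a second chromosome, had 1717, 1815, 1474 and 1805 in IP, against 874 and 1006 in SN, and the 4 IP differed little among themselves, but in the single-end run the groups overlapped. The row mt-Nd4, on the mitochondrial chromosome, had 14.6, 30.8, 41.6 and 35.3 in IP, against 45.7 and 45.7 in SN, the opposite order. Nuclear genes of oxidative phosphorylation had 19 of 47 tested positive and a median of -0.18, proteasome and ubiquitin genes 9 of 20 and -0.16, and secretory pathway genes of the endoplasmic reticulum 3 of 7 and -0.02.

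Transcripts of antibody-secreting cells mostly had positive differences, and this list of 26 genes was chosen after values were seen. Of 7 tested members 6 were positive, with a median difference of 1.84, or 2.14 without FC1 and 2.62 in the single-end table. Without a minimum, 16 were positive and 4 negative among the 21 above 0 in any dendrite library, beside 32.4% positive over all such genes. The list was chosen by these values, and the minimum keeps a gene through the group where it is high. These counts and medians therefore describe the members and test nothing. Pou2af1 had a scaled FPKM of 68.5, 4.53, 8.40 and 32.3 in IP, against 0.521 and 0 in SN (log2 difference 3.92, SE 1.51, limma adjusted p = 1). Ighg1, an immunoglobulin heavy chain gene (chromosome 12, 114563457 to 114577593), had 2.15, 4.98, 6.88 and 16.2 in IP, against 0.664 and 0 in SN (log2 difference 2.46, SE 1.13, limma adjusted p = 1). Igj, the chain that joins antibody multimers (chromosome 5, 88948834 to 88956922), had 2.65, 27.1, 1.76 and 3.40 in IP, against 0.0333 and 0 in SN (log2 difference 2.55, SE 0.95, limma adjusted p = 1). The row of antibody segments, abParts, had 32.9, 1.53, 1.14 and 0.365 in IP, against 0.232 and 0.00454 in SN. The 4 genes had every IP above both SN, FC1 included, beside 4.39% of all genes.

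The single-end runs showed the same separation. Ighg1 had a single-end scaled FPKM of 31.1, 10.3, 41.3 and 19.4 in IP, and was listed at 0 in both SN. Igj had 48.0, 38.2, 10.2 and 30.5 in IP, and was also listed at 0 in both SN. The summed level of the 26 genes was 113, 39.7, 23.4 and 61.0 in IP, against 4.102 and 2.12 in SN, in the paired-end runs. In the single-end runs it was 179, 81.8, 92.1 and 170.3 in IP, against 12.7 and 1.91 in SN. The soma libraries showed it too, with paired-end sums of 3.05 to 152 in the 4 soma IP and 0.756 in the soma SN. Of the B lineage markers in the list, Cd79a, Ms4a1, Pax5 and Blk were listed at 0 in all 6 dendrite libraries in both runs. Others were above 0 in some libraries, such as Cd79b in 1 IP in each run, Cd22 in 3 IP in the paired-end run, and Cd37 in 2 IP in each run and in 2 SN in the single-end run. A second list chosen after values were seen, of proliferation genes, had 7 of 7 tested positive and a median of 1.31 (relative to all genes 1.41, and 2.22 without HC1 IP). Without a minimum, 21 were positive and 2 negative among the 23 above 0 in any dendrite library, beside 32.4% positive over all such genes. The same limit of choice and minimum holds for this list. Its member Myc, a growth-promoting transcription factor, was at 10.98, 8.80, 19.2 and 2.85 in IP, against 0.219 and 0.168 in SN. As background, monoclonal antibodies are made by hybridomas, fusions of an antibody-secreting cell with a myeloma cell. The part that RNA of antibody-secreting or dividing cells has in the differences of ribosomal protein, translation factor, nucleolar and other genes was not tested.

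**Figure D4:**
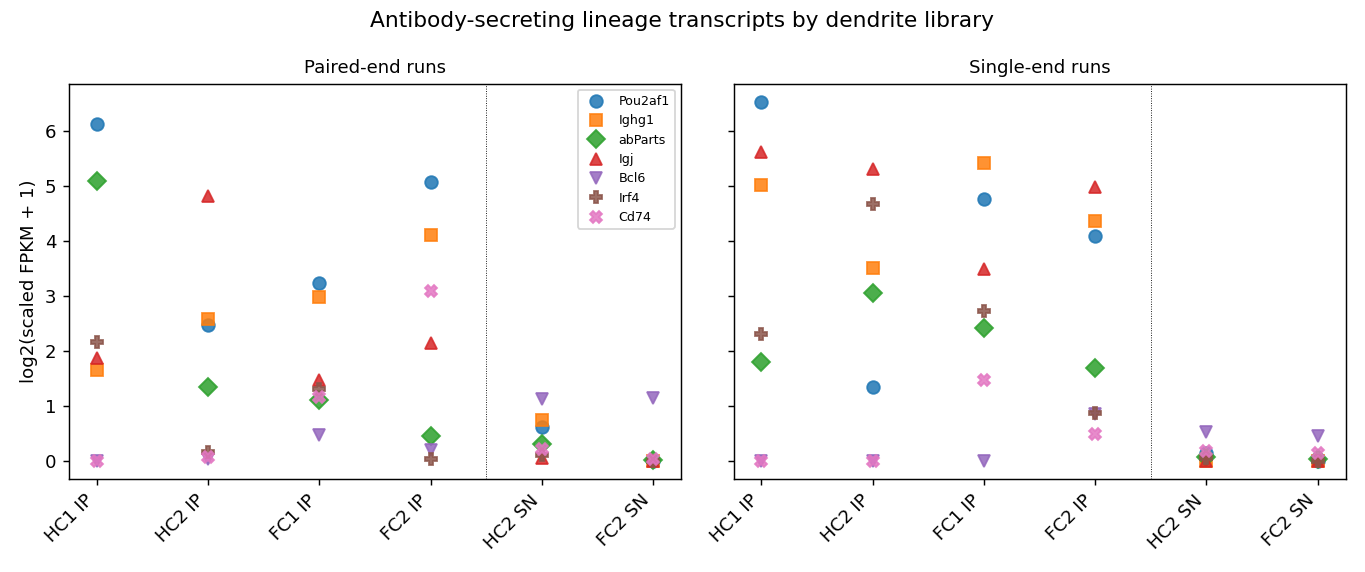
Points give log2(scaled FPKM + 1) of the 7 tested genes of the antibody-secreting lineage in each dendrite library, for the paired-end runs (left) and the single-end runs (right), immunoprecipitates (IP) to the left of the dotted line and supernatants (SN) to its right. Pou2af1, Ighg1, abParts and Igj lie above both SN in all 4 IP in both runs, and Bcl6 does not.

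The name-matched pairs are given as values, since a fit on these 4 libraries with the replicate block has 1 residual degree of freedom. That fit called 8 genes higher and 2 lower by limma. In the home cage pair the median of IP minus SN over all genes was -0.27 and in the fear conditioned pair -0.20. The pairs share no library, and 1658 of the 2938 genes (56.4%) had the same sign in both, with a Pearson's r of 0.166 across genes, which are not independent replicates. Past 2 on the log2 scale in both pairs were 52 genes (1.77%) on the higher side and 67 genes (2.28%) on the lower side. The higher set held Rbm25 (7.04 in HC2 and 7.87 in FC2), Mdm2 (6.56 and 4.57), Ncl (6.39 and 4.92), Igj (4.77 and 2.14) and Npm1 (3.94 and 5.15). It also held the chaperone genes Hsp90ab1 (2.55 and 2.21) and Hsp90aa1 (2.54 and 2.34). The lower set held Mobp (-4.15 and -3.46), Npy (-3.22 and -2.82), Fabp7 (-3.04 and -3.83) and Gad1 (-2.38 and -2.39). The genes given as examples of both sets were chosen after their values were seen.

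By group, astrocyte markers had medians of -1.77 in FC2 and -1.33 in HC2, with 13 of 20 tested members negative in both pairs and 0 positive in both. Oligodendrocyte markers had -1.59 in FC2 and -1.79 in HC2, with 7 of 10 negative in both. Ribosomal protein genes had 0.65 in FC2 and 0.57 in HC2, with 30 of 75 positive in both and 11 negative in both. Dendritic mRNAs had 0.43 in FC2 and 0.84 in HC2, with 13 of 32 positive in both and 7 negative in both.

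**Figure D5:**
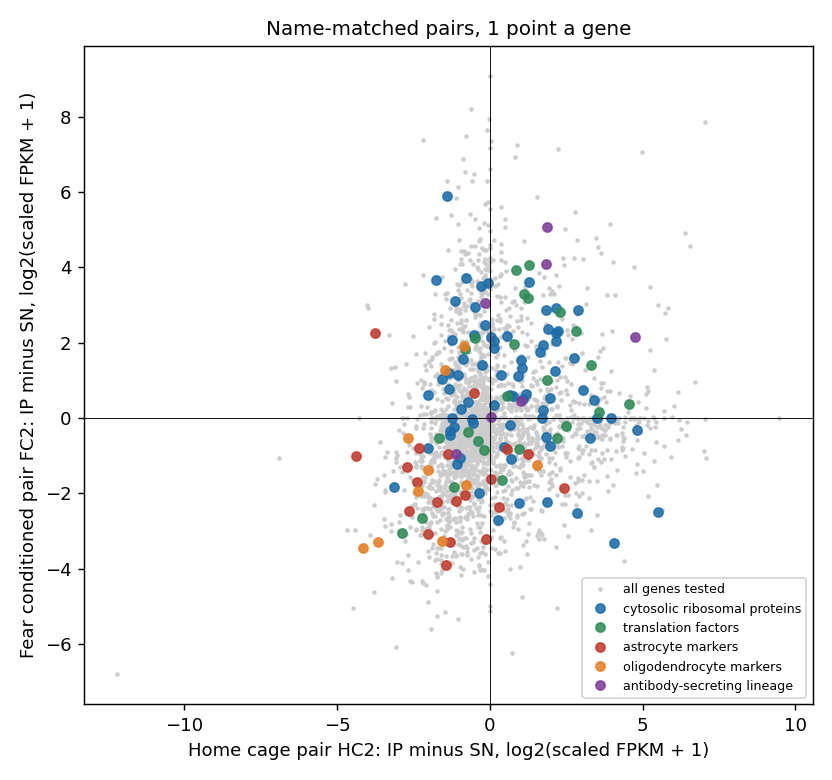
Each point is a gene, with the log2(scaled FPKM + 1) difference of immunoprecipitate (IP) minus supernatant (SN) in the home cage pair on the x axis and in the fear conditioned pair on the y axis. The cloud is broad (Pearson's r of 0.166 across genes), astrocyte and oligodendrocyte markers lie mostly at the lower left and none of them has both differences above 0, and 30 of 75 ribosomal protein genes have both above 0.

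Whether the contrast differs between dendrite and soma was tested with the 4 soma IP and the 1 soma SN. By limma 0 of 2938 genes (0%) passed, with a smallest adjusted p of 0.999, and at an unadjusted p of 0.05 there were 6 higher (0.204%) and 6 lower (0.204%). In soma the median difference was -0.51 for astrocyte markers, 0.76 for ribosomal protein genes, -0.86 for presynaptic genes and -0.04 for oligodendrocyte markers, beside 0.07 over all genes. Whether the dendrite contrast differs between fear conditioned and home cage mice was tested with 2 IP and 1 SN per behaviour. Here too 0 genes (0%) passed by limma, the smallest adjusted p was 1, and at an unadjusted p of 0.05 there were 10 higher (0.34%) and 18 lower (0.613%). These values do not show that the contrasts are alike.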

How the data were processed

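Per the labels' protocols, TruSeq libraries were made from RNA amplified with a Nugen Ovation kit, after a step with a nuclease for single strands. Tools named are Cufflinks 2.0.2, CASAVA 1.9 and STAR 2.1.1d, with the build mm9, per the submitters' processing notes. The authors deposited FPKM for 29848 genes, per the file headers, in tables of paired-end and of single-end runs, split into a coding part (with the 5′ UTR and the first stretch of the 3′ UTR) and the remaining 3′ UTR. Coordinates are 1-based from the deposited mm9 models. Use of strand is not stated.

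The coding part of the paired-end table was the main measure. A factor per library, the median of its ratios to gene-wise geometric means (765 genes, above 0 everywhere), scaled the FPKM. Genes averaging at least 1 entered a fit on log2(scaled FPKM + 1) with limma 3.58.1 in R 4.3.3 (location and fraction as cell means, behaviour as covariate, 6 residual degrees of freedom, Benjamini-Hochberg, threshold 0.05); the fit was tested on simulated data. With FPKM only, no counting interval was computed; depth came from the spacing of low values in genes with 1 transcript (89.9 to 97.4% lay within 0.15 reads of 1 to 3 reads), a rule set after values were seen.

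Named genes were the 10 largest per direction under the conditions given with them, the 4 most abundant members of each list described, and Camk2a, Rpl10a, Gfap, Mbp, Gad1 and C1qa; all other genes named were chosen after their values were seen. The members, lists and tests were chosen with earlier results of these data known. Some members of the lists are not reported here. Of 740 symbols in the lists, 37 had no row. Alternatives covered pseudocount, minimum, scaling, libraries in the fit, weights, moderation, run and transcript part. Medians relative to all genes with a library left out came from refits with behaviour as covariate, with the minimum applied anew. Other medians and differences without FC1 are of plain means over the genes tested with every library.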

Additional observations from a re-analysis of the deposited data

Results flagged for a closer look

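Of 53 values examined over the 4 dendrite IP (named genes, list medians and genes above 0), 11 had 1 library far from the other 3. The cut-off is passed by about 1 in 20 groups of normally distributed values. Most of the flagged genes had 3 IP at or near 0 and 1 above, where it is passed readily. Many genes examined were also named by their difference between IP and SN, so that rate is no measure of chance here. Mir135b was examined because it was high in FC1 IP alone, and without it the tally was 10 of 52. The values are log2(scaled FPKM + 1) unless stated. FC1 IP was the library apart in 9 of them. It was higher than the others for Mir135b (12.59, against 0 in the other 3), Slc22a17 (1.40, against 0 to 0.11), Stx4a (1.39, against 0), Rcan2 (1.92, against 0 to 0.15), Fabp7 (1.92, against 0 to 0.08), 1700025G04Rik (1.37, against 0 to 0.04), Sox2ot (0.57, against 0) and C1qa (0.53, against 0). It was lower for Ncl (3.81, against 7.63 to 7.79). HC2 IP was the library apart for Mdm2 (7.77, against 4.58 to 5.06). The median difference of secretory pathway genes of the endoplasmic reticulum was -0.48 in FC2 IP, against -0.04 to -0.03 in the other 3.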

How the results depend on the processing

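The count of genes higher in IP at an adjusted p of 0.05 stayed 0 under every alternative but the 2 name-matched pairs alone with replicate block, which gave 8 higher. The count lower, 2 with the settings of the report, was 1 with a pseudocount of 0.1, 1 with a pseudocount of 5, 1 with a minimum mean of 5, 1 with the replicate block, 0 with the 6 dendrite libraries alone, 0 in the rest of the 3′ UTR, 10 in the single-end table (0 of them called in the paired-end table) and 318 with no minimum, where 15358 genes entered. Leaving out 1 dendrite library at a time gave 0 to 0 higher and 0 to 1 lower. For the difference between dendrite and soma the count was 355 with no minimum and 5 in the single-end table, and for that between behaviours it was 1998 with no minimum, all beside 0; the cause was not tested. The difference between behaviours was not fitted without either SN, with the block or with the pairs or dendrite libraries alone. Library numbers pair no samples by the labels, and the replicate block left 0 higher and 1 lower.

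Among named genes 5 values reversed: in the rest of the 3′ UTR Ncl was -0.03, Ezr -1.56 and Lass2 0.69, and in the single-end table AK193394 was 5.12 and Gm3168 4.05. Of 534 values 508 kept their direction and call, 6 gained a call and 15 lost one. List medians relative to all genes stayed within 1 SD of the IP medians in 349 of 464 settings. Scaling to the upper quartile put the median of all genes at -0.49, and scaling over 338 genes at or above 0.1 FPKM, chosen after seeing the data, put it at -0.27, with 329 and 197 genes lower at an unadjusted p of 0.05. The alternative runs share libraries with the main ones, IP were shallower than SN, and differences of genes near 0 were not detectable at this depth.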
